A study of Mus musculus with 4 samples.

Results

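Splicing factors are the proteins that recognise introns in a new transcript, cut them out and join the exons. The genes described here carry a symbol that starts with Srsf and a digit, Hnrnp, Sf3a or Sf3b, Snrp, or Prpf, with pseudogenes left out. The deposited tables of 4 mouse macrophage libraries hold 61 such genes among 17008 genes with a read in any library. By family there are 11 Srsf, 18 Hnrnp, 8 Sf3, 11 Snrp and 13 Prpf genes. All 61 had a read in every library, and 60 reached 10 CPM, meaning reads per 1000000 reads of the library, in at least 1 library. The exception was Srsf12, an SR protein gene with 1 read in normal bone marrow, 2 in T-ALL bone marrow, 12 in normal spleen and 3 in T-ALL spleen.

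The study sorted macrophages from bone marrow and spleen of C57BL/6J mice, listed as 6 to 8 weeks old, and sequenced their RNA. Normal mice were taken at day 0. The other mice had T cell acute lymphoblastic leukaemia, or T-ALL. They had received GFP-positive leukaemia cells from diseased mice, with no irradiation, and were sampled at day 21. Mice with this leukaemia lived 35 to 40 days. The 4 groups are thus normal bone marrow, T-ALL bone marrow, normal spleen and T-ALL spleen, with 1 library each. The lesion that drives the leukaemia, the markers of the sort, the sex of the mice and whether animals were pooled were not given in the sources used here.

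Splicing is carried out by the spliceosome, which is built on each intron from small nuclear ribonucleoproteins (snRNPs), particles made of a short RNA and a set of proteins. The Snrp genes encode proteins of these particles, the Sf3 genes the part of the U2 particle that holds the branch point, and the Prpf genes factors that join, activate and drive the complex. SR proteins (Srsf) bind exons and usually favour their inclusion, while hnRNP proteins (Hnrnp) coat new transcripts and often oppose it.

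Each group has 1 library, so differences have no replicate check and p-values are left out. Parentheses after a fold hold its exact 95% counting interval, which covers counting error alone and takes reads as independent molecules. Folds are ratios of CPM. A gene is called 2-fold higher or lower where log2(CPM + 1) differed by at least 1 and the higher library had 10 CPM or more. Totals ran from 8979 to 9810 in units of 1000 reads, so 1 read was worth 0.101 to 0.112 CPM.

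The libraries differed in more than condition. The 15 macrophage marker genes summed to 3806 CPM in normal bone marrow, 10033 in T-ALL bone marrow, 10152 in normal spleen and 5457 in T-ALL spleen. Much of the T-ALL bone marrow sum was Lyz2, at 2572, 5494, 946 and 241 CPM in that order. Without it, in a sum added after the values were seen, the other 14 markers came to 1234, 4539, 9206 and 5215 CPM, so T-ALL bone marrow lay below T-ALL spleen. Emr1, which encodes the macrophage antigen F4/80, was at 39.5 CPM in normal bone marrow against 303, 698 and 429 CPM in the other libraries, in the same order. Mpo, an enzyme of neutrophil granules, reached 9900.0 and 2531 CPM in normal and T-ALL bone marrow, against 50.7 and 44.1 CPM in the spleens. The labelled cell type therefore has its markers in every library, with those of neutrophil precursors well above them in both bone marrow libraries. The 18 T cell markers summed to 269, 927, 1544 and 4199 CPM, and 25 cell cycle genes to 8166, 5121, 1598 and 6284 CPM. The 11 B cell markers summed to 525, 485, 2873 and 1424 CPM, and 10 dendritic cell markers to 259, 417, 1156 and 476 CPM. Both were highest in normal spleen. Reads of the Y-linked Ddx3y numbered 874 in T-ALL bone marrow and 532 in T-ALL spleen but 0 in the normal libraries (a count of 0 allows up to 3). Xist, expressed from the inactive X chromosome of female cells, was at 861, 0.644, 849 and 416 CPM, so T-ALL spleen held reads of both kinds and T-ALL bone marrow almost no Xist. Disease and the sex of the cells cannot be told apart here, and the T-ALL libraries differ in sex-linked reads from each other too. Immediate early and heat shock genes, known to respond to stress, summed to 4661, 9117, 9619 and 10128 CPM.

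Splicing factor RNA was lowest in normal spleen and highest in T-ALL spleen. The 61 genes took 1.23% of the reads in normal spleen (1.23 to 1.24, Wilson 95% interval), 1.49% in T-ALL bone marrow (1.49 to 1.5), 1.80% in normal bone marrow (1.79 to 1.81) and 1.96% in T-ALL spleen (1.95 to 1.97). These are shares of bulk RNA, in which a different mix of cells and a different level per cell cannot be told apart. Of the 60 genes at 10 CPM or more, 49 were lowest in normal spleen, against 31.9% of all 10312 genes at that level. T-ALL spleen held the highest value for 40 of the 60, against 26.2% of all genes, and T-ALL bone marrow for 0, against 1235 of the 10312 genes. Normal spleen held it for 5 (Prpf18, Prpf38b, Prpf39, Sf3b1 and Srsf5), against 33.3% of all genes. The same order of the libraries, normal spleen below T-ALL bone marrow and T-ALL bone marrow below the other two, was seen in 45 of the 60 genes and in 19.4% of all genes. The cell cycle list had its lowest sum in normal spleen and its next lowest in T-ALL bone marrow too. Its part in the order of the splicing factors was not tested.

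**Figure D1:**
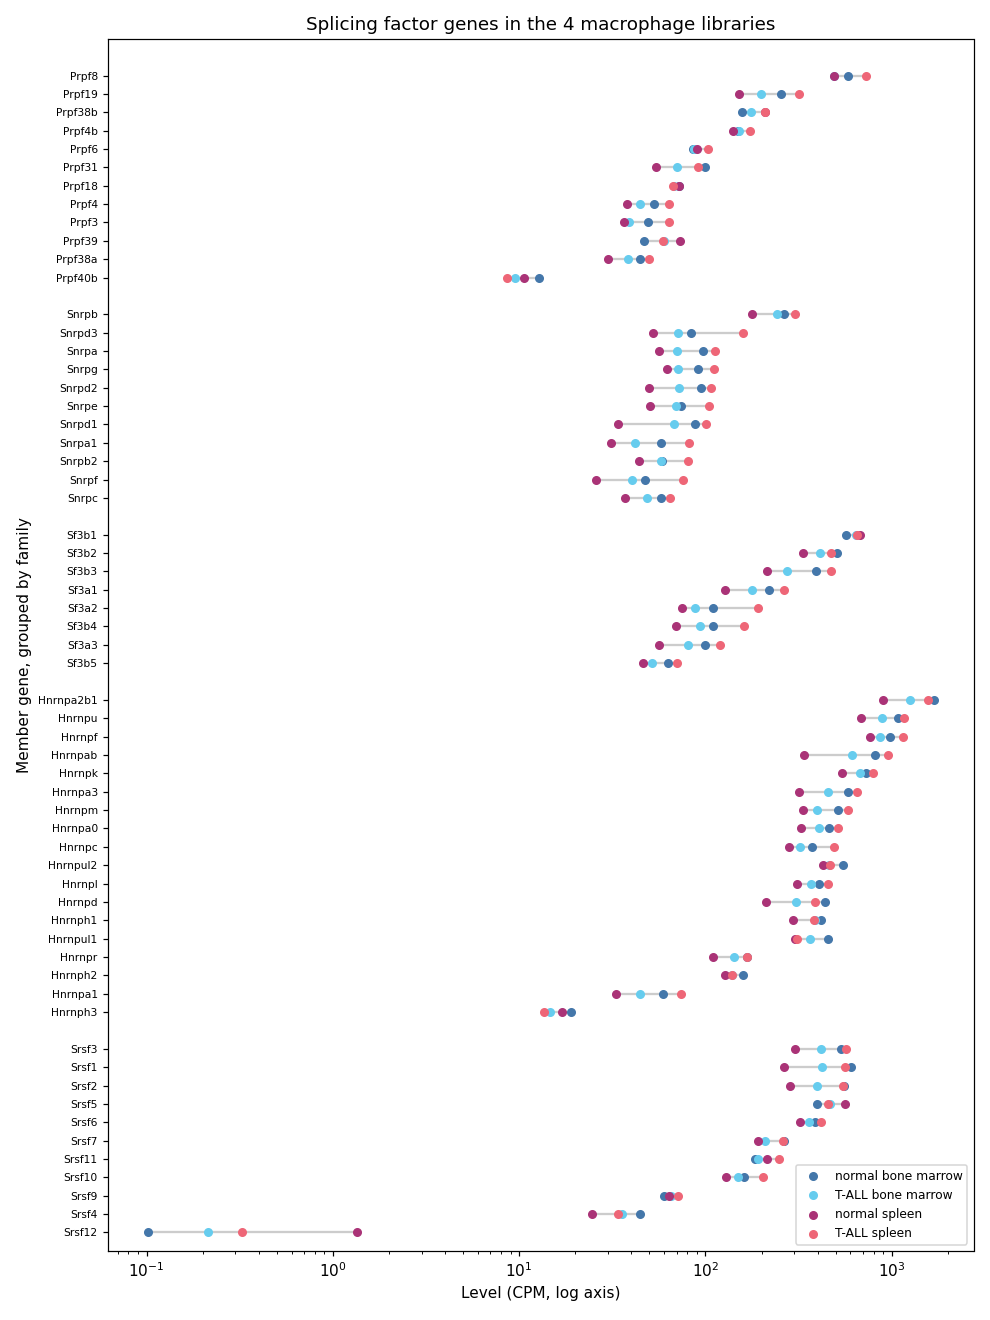
Level of 60 of the 61 genes in the 4 libraries, in CPM on a log axis, grouped by family, with a grey line from the lowest to the highest library. Normal spleen is the lowest point for most genes, while Srsf5, Sf3b1, Prpf39, Prpf38b, Prpf18 and the barely detected Srsf12 are highest there.

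In spleen, the T-ALL library had more RNA of most splicing factors. Of the 60 members at 10 CPM or more, 16 were higher by at least 2-fold, against 10.3% of the 9774 genes measured there, and 0 were 2-fold lower, against 11% of all genes. At 1.5-fold, 37 were higher (20.1% of all genes) and 0 lower (23.9%). The median log2 fold of the members was 0.75, and that of all genes measured was -0.08. The counting interval lay above 1 for 51 members (36.3% of all genes) and below 1 for 3 (43.2%). The 25 cell cycle genes were all 2-fold higher in the same comparison, with a median log2 fold of 2.0. Of 17 T cell markers measured, 12 were 2-fold higher and 1 (Cd8a) was lower. Of 15 macrophage markers 8 were lower and 0 higher, and of 9 dendritic cell markers 8 were lower and 0 higher. Their part in the splicing factor values was not tested.

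In bone marrow, the difference ran the other way and was small. None of the 60 genes measured was 2-fold higher, against 8.01% of the 9716 genes measured there, or 2-fold lower, against 1.03%. None passed 1.5-fold either, where 14.1% of all genes were higher and 7.09% lower. Even so, 52 of the 60 were lower in the T-ALL library and 8 higher, beside 45.9% of all genes higher. The median log2 fold was -0.25, against -0.04 for all genes. The counting interval lay below 1 for 48 members (33.5% of all genes) and above 1 for 4 (30.6%). Cell cycle genes had a median log2 fold of -0.69 and 9 of 13 neutrophil precursor markers were 2-fold lower in this pair, while 14 of 15 macrophage markers and 14 of 15 T cell markers were higher. Of the 15 immediate early and heat shock genes, 12 were 2-fold higher, with a median of 1.72. The part of these lists in the splicing factor values was not tested.

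The organ comparisons show the same levels from another side, since they use the same 4 libraries. Between the normal libraries, 4 members (Hnrnpab, Hnrnpd, Snrpd1 and Srsf1) were 2-fold lower in spleen, against 14% of all genes, and 0 were higher, against 16.1%. The median log2 fold was -0.55, and the interval lay below 1 for 49 members (41.9% of all genes) and above 1 for 5 (38.6%). Between the T-ALL libraries, 2 of 59 members (Sf3a2 and Snrpd3) were 2-fold higher in spleen, against 5.44% of all genes, and 0 were lower, against 11%. The median there was 0.41, and the interval lay above 1 for 48 members (36.4% of all genes) and below 1 for 1 (35.7%), Hnrnpul1. The 2-fold counts of these organ comparisons lie below the shares of all genes. Between the normal libraries, all 25 cell cycle genes and all 13 neutrophil precursor markers were 2-fold lower in spleen. Higher there were 13 of 15 macrophage markers, 15 of 17 T cell markers and 11 of 15 immediate early and heat shock genes. The macrophage markers Itgam and Lyz2 and the immediate early gene Ier3 were 2-fold lower. Between the T-ALL libraries, 12 of 13 neutrophil precursor markers were lower in spleen, 16 of 17 T cell markers were higher, and 0 of 25 cell cycle genes passed 2-fold. Of 15 macrophage markers 5 were lower there and 1 (Mertk) was higher. Their part was not tested.

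**Figure D2:**
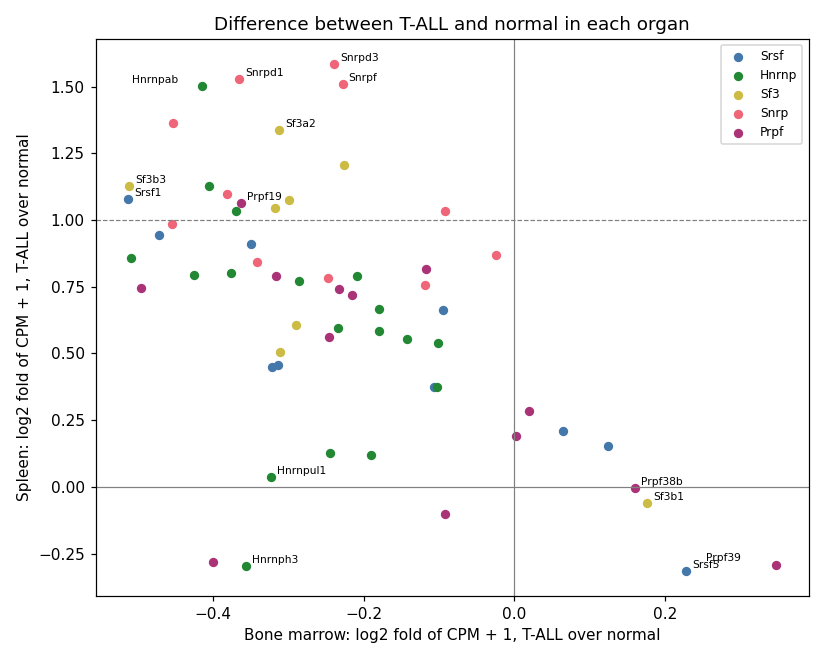
Log2 fold of CPM + 1 between T-ALL and normal in bone marrow (horizontal) and spleen (vertical) for the 60 genes at 10 CPM or more, coloured by family, with a dashed line at 2-fold in spleen. Most points lie to the left of 0 and above 0, and Srsf5, Sf3b1 and Prpf39 lie at the lower right.

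The Snrp genes followed the shared order without exception. All 11 were lowest in normal spleen, next in T-ALL bone marrow, and highest in T-ALL spleen. In spleen 6 of 11 were 2-fold higher in T-ALL (10.3% of all genes) and all 11 passed 1.5-fold (20.1%). The median log2 fold was 1.03. In bone marrow all 11 were lower in T-ALL, by a median of -0.25, whereas 45.9% of all genes were higher. For 9 of the 11 the counting interval lay below 1 (33.5% of all genes).

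Of the Snrp genes, 7 encode the Sm proteins, the ring that is loaded onto the RNA of the U1, U2, U4 and U5 particles. Snrpd3, for SmD3, was at 83.9 CPM in normal bone marrow, 70.9 in T-ALL bone marrow, 52.5 in normal spleen and 159 in T-ALL spleen. Its fold between the spleens, 3.04 (2.73 to 3.38), was the largest of any member. Snrpd1, for SmD1, was at 88.1, 68.1, 34.1 and 100.4 CPM in the same order, 2.94-fold higher in T-ALL than in normal spleen (2.58 to 3.36). It was also 2.58-fold lower in normal spleen than in normal bone marrow (2.26 to 2.95). Snrpd3 thus had its widest gap above the others in T-ALL spleen, and Snrpd1 its widest gap below them in normal spleen.

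Snrpf was at 47.2, 40.1, 25.8 and 75.5 CPM, 2.92-fold higher in T-ALL spleen (2.51 to 3.40). Snrpd2 was at 94.3, 72.1, 49.8 and 108 CPM, 2.16-fold higher (1.93 to 2.43). Snrpe was at 74.2, 69.5, 50.3 and 104 CPM, 2.07-fold higher (1.85 to 2.32). The remaining ring genes, Snrpb and Snrpg, stayed under 2-fold. Snrpb, for SmB, had the highest mean level per length of the family, 220.4 RPKM (reads per kilobase of gene, scaled to library size), and was at 263, 242, 179 and 303 CPM, 1.69-fold higher (1.59 to 1.80). Snrpg was 1.81-fold higher (1.63 to 2.01). Per length, the RNA of Snrpd3 amounted to 0.591 of that of Snrpb in normal bone marrow (0.546 to 0.640), 0.543 in T-ALL bone marrow and 0.545 in normal spleen, but 0.976 in T-ALL spleen (0.916 to 1.04). The ratio was thus higher in T-ALL spleen than in the other libraries.

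The other 4 Snrp genes belong to single particles. Snrpa1, which encodes the A′ protein of U2, was at 57.5, 41.7, 31.0 and 81.3 CPM, 2.62-fold higher in T-ALL spleen (2.28 to 3.02). Its partner Snrpb2 was at 58.6, 57.6, 43.8 and 81.0 CPM, 1.85-fold higher (1.63 to 2.09). Snrpa and Snrpc, for the A and C proteins of U1, which recognises the start of an intron, were 1.99-fold (1.79 to 2.22) and 1.74-fold higher (1.52 to 2.0). Snrpa, at 96.7, 70.3, 56.6 and 113 CPM, lay just under the 2-fold line and crossed it under total-count scaling.

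Of the 8 Sf3 genes, 5 were 2-fold higher in T-ALL spleen (10.3% of all genes), with a median log2 fold of 1.06. In T-ALL bone marrow 7 of the 8 were lower and 1 higher, beside 45.9% of all genes higher. The 3 subunits of SF3a, which matures the U2 particle, all passed 2-fold. Sf3a2 was at 109 CPM in normal bone marrow, 87.9 in T-ALL bone marrow, 74.8 in normal spleen and 191 in T-ALL spleen, 2.55-fold higher between the spleens (2.33 to 2.79). Sf3a1 was at 220.5, 177, 127 and 263 CPM, 2.07-fold higher (1.93 to 2.23). Sf3a3 was at 99.2, 80.5, 56.5 and 120.1 CPM, 2.13-fold higher (1.91 to 2.37). Sf3a2 also differed between the T-ALL libraries, where it was 2.17-fold higher in spleen (2.0 to 2.36).

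SF3b, which grips the branch point, was split. Sf3b4, whose protein contacts the intron beside the branch point, was at 109, 93.4, 69.6 and 162 CPM, 2.32-fold higher in T-ALL spleen (2.12 to 2.56). Sf3b3, a scaffold subunit, was at 393, 275, 215 and 471 CPM, 2.19-fold higher (2.08 to 2.31), and in T-ALL bone marrow it was 1.43-fold lower (1.36 to 1.5), the most of its family. Sf3b2, the family's highest per length at 133 RPKM, was at 510.1, 411, 333 and 472 CPM. Sf3b2 and the small subunit Sf3b5 were 1.42-fold (1.35 to 1.49) and 1.54-fold higher in T-ALL spleen (1.35 to 1.74). Sf3b1 did not follow. This largest subunit of SF3b, often mutated in human blood cancers, was at 569.8 CPM in normal bone marrow, 644 in T-ALL bone marrow, 677 in normal spleen and 649 in T-ALL spleen. Per length, Sf3b3 amounted to 0.993 of Sf3b1 in normal bone marrow (0.952 to 1.03) and 1.05 in T-ALL spleen (1.00 to 1.09), against 0.615 in T-ALL bone marrow (0.587 to 0.644) and 0.457 in normal spleen (0.434 to 0.482). The ratio was higher in the pair of libraries with the larger cell cycle sums, 8166 CPM in normal bone marrow and 6284 in T-ALL spleen. In the other pair the sums were 5121 CPM in T-ALL bone marrow and 1598 in normal spleen. A link between the ratio and these sums was not tested.

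The 13 Prpf genes varied most in direction. In spleen 1 was 2-fold higher in T-ALL, beside 10.3% of all genes, and 6 passed 1.5-fold, beside 20.1%. The median log2 fold was 0.56. In bone marrow 9 were lower and 4 higher, beside 45.9% of all genes higher, with a median of -0.22. Prpf19, a ubiquitin ligase that leads a complex needed to activate the spliceosome, was at 254 CPM in normal bone marrow, 198 in T-ALL bone marrow, 151 in normal spleen and 317 in T-ALL spleen, 2.10-fold higher between the spleens (1.96 to 2.24).

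The genes of the U4/U6.U5 particle, which brings the catalytic RNAs to the intron, were higher in T-ALL spleen to differing degrees. Prpf3, Prpf4 and Prpf31, of its U4/U6 part, were 1.75-fold (1.52 to 2.01), 1.69-fold (1.48 to 1.94) and 1.69-fold higher (1.51 to 1.89). Prpf31 was at 99.2, 70.1, 54.1 and 91.4 CPM and was the most reduced of the family in T-ALL bone marrow, 1.42-fold lower (1.28 to 1.57). Prpf8, the core scaffold at the active site and the family's highest per length at 76.4 RPKM, was at 581, 489, 493 and 727 CPM, 1.48-fold higher in T-ALL spleen (1.42 to 1.53). Prpf38a, needed for activation, was 1.67-fold higher (1.43 to 1.95). Prpf6 and the kinase gene Prpf4b differed least of this set, at 1.14-fold (1.04 to 1.26) and 1.22-fold (1.13 to 1.31), and their counting intervals in bone marrow included 1.

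The remaining Prpf genes had no common direction. Prpf40b, linked to the U1 particle, was low throughout, at 12.8, 9.44, 10.6 and 8.55 CPM. Prpf18, a factor of the final joining step, ran from 67.2 to 72.3 CPM, and every interval between its libraries included 1. Prpf38b was at 157, 175, 210.0 and 209 CPM, lowest in normal bone marrow, with an interval between the spleens that included 1. Prpf39, also linked to U1, was at 46.7, 59.7, 72.8 and 59.3 CPM, 1.28-fold higher in T-ALL than in normal bone marrow (1.13 to 1.45) and 1.23-fold lower in T-ALL than in normal spleen (1.09 to 1.38).

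SR protein genes were also divided. Of the 10 measured, 1 was 2-fold higher in T-ALL spleen, near the 10.3% of all genes, and 4 passed 1.5-fold, beside 20.1%. The median log2 fold was 0.45. In bone marrow 7 were lower and 3 higher (median -0.21), beside 45.9% of all genes higher. Srsf1, which encodes the prototype SR protein SF2/ASF, was at 604 CPM in normal bone marrow, 423 in T-ALL bone marrow, 265 in normal spleen and 561 in T-ALL spleen. It was 2.12-fold higher in T-ALL than in normal spleen (2.02 to 2.22), 1.43-fold lower in T-ALL than in normal bone marrow (1.37 to 1.49), and 2.28-fold lower in normal spleen than in normal bone marrow (2.17 to 2.39). Srsf2 was at 553, 399, 284 and 546 CPM and Srsf3 at 532, 417, 302 and 569 CPM. These 3 genes thus had the same order, with normal spleen lowest and T-ALL bone marrow next.

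Srsf5 had the reverse order. It was at 399 CPM in normal bone marrow, 467 in T-ALL bone marrow, 564 in normal spleen and 454 in T-ALL spleen. That is 1.17-fold higher in T-ALL than in normal bone marrow (1.12 to 1.22) and 1.24-fold lower in T-ALL than in normal spleen (1.19 to 1.30). Per length, Srsf1 amounted to 0.453 of Srsf5 in normal bone marrow (0.435 to 0.471), 0.270 in T-ALL bone marrow (0.259 to 0.282), 0.140 in normal spleen (0.134 to 0.147) and 0.370 in T-ALL spleen (0.355 to 0.385). The intervals of the 4 ratios do not overlap. Srsf5 was the highest SR gene per length, with a mean of 283 RPKM.

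Other SR genes lay between these. Srsf10, whose protein can repress splicing when it loses its phosphates, was 1.59-fold higher in T-ALL spleen (1.47 to 1.71). Srsf7 and Srsf6 were 1.37-fold (1.28 to 1.46) and 1.30-fold higher (1.24 to 1.36), and Srsf4, at 24.5 to 44.6 CPM, 1.39-fold higher (1.16 to 1.66). Srsf11 was at 184, 192, 214 and 248 CPM, lowest in normal bone marrow. Srsf9 ran from 59.9 to 70.9 CPM, with intervals that included 1 in both T-ALL comparisons.

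The hnRNP genes were the family with the most reads, at 0.628% of all reads in normal spleen and 1.03% in T-ALL spleen. In bone marrow all 18 were lower in T-ALL, each with an interval below 1 (33.5% of all genes), by a median log2 fold of -0.27. In spleen 17 of 18 were higher in T-ALL (46.0% of all genes), with a median of 0.63. Of the 18, 3 passed 2-fold (10.3% of all genes) and 10 passed 1.5-fold (20.1%). The family was low in normal spleen, where 17 of its 18 genes had their lowest value.

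Hnrnpab, whose protein binds RNA and single-stranded DNA, differed most. It was at 812 CPM in normal bone marrow, 609 in T-ALL bone marrow, 337 in normal spleen and 957 in T-ALL spleen, 2.84-fold higher between the spleens (2.72 to 2.96). Hnrnpa1, a repressor of exon inclusion, was at 59.5, 44.6, 33.2 and 73.8 CPM, 2.22-fold higher (1.94 to 2.56). Uniquely mapped reads covered only 27.7% to 28.3% of its listed length, so its level cannot be set beside those of its relatives. Hnrnpa3 was at 585, 453, 317 and 651 CPM, 2.05-fold higher (1.96 to 2.15). Hnrnpa2b1, the relative with the most reads of any member, was at 1689, 1257, 897 and 1556 CPM, 1.74-fold higher (1.69 to 1.78). Hnrnpd, whose protein AUF1 binds AU-rich elements of unstable mRNAs, was at 438, 307, 212 and 386 CPM. It was 2.06-fold lower in normal spleen than in normal bone marrow (1.95 to 2.18) and the lowest of the family by fold in T-ALL bone marrow, 1.42-fold lower (1.36 to 1.49).

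The more even hnRNP genes included the most abundant. Hnrnpf and Hnrnpk were the highest members per length, with means of 368 and 346 RPKM. They were 1.5-fold (1.45 to 1.55) and 1.45-fold higher in T-ALL spleen (1.40 to 1.51). Hnrnpf was at 976, 861, 766 and 1148 CPM. Hnrnpk, at 726, 677, 543 and 788 CPM, differed least of the family in bone marrow by log2 fold, 1.07-fold lower in T-ALL (1.04 to 1.11). Hnrnpl, whose protein represses variable exons of the phosphatase gene Ptprc in T cells, was at 405, 367, 309 and 455 CPM. Hnrnpu, a nuclear scaffold protein gene, was at 1076, 882, 679.9 and 1159.9 CPM. Hnrnpc, Hnrnpm, Hnrnpa0 and Hnrnpr were 1.73-fold, 1.75-fold, 1.59-fold and 1.52-fold higher in T-ALL spleen.

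The last hnRNP genes differed by 1.30-fold or less between the spleens. Hnrnpul1 was at 456 CPM in normal bone marrow, 364 in T-ALL bone marrow, 301 in normal spleen and 309 in T-ALL spleen, a fold of 1.03 between the spleens (0.973 to 1.08). Hnrnpul2 and Hnrnph2 were each 1.09-fold higher, and Hnrnph1 1.30-fold (1.23 to 1.36). Hnrnph3 was at 19.0, 14.6, 17.0 and 13.6 CPM and was the only hnRNP gene lower in T-ALL spleen, by 1.25-fold with an interval that included 1 (0.978 to 1.59). Per length, Hnrnpab amounted to 1.27 of Hnrnpul1 in normal spleen (1.21 to 1.34) and 3.51 in T-ALL spleen (3.37 to 3.67).

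**Figure D3:**
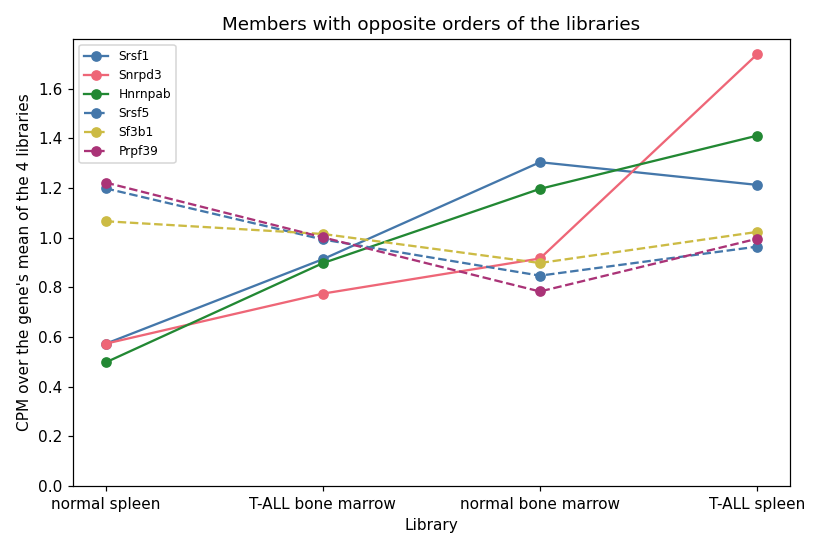
CPM of 6 genes divided by each gene's mean over the 4 libraries, with the libraries ordered from normal spleen to T-ALL spleen. Srsf1, Snrpd3 and Hnrnpab (solid lines) are lowest in normal spleen, whereas Srsf5, Sf3b1 and Prpf39 (dashed lines) are highest there.

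Counted over all families, 45 of 60 members were lower in T-ALL bone marrow and higher in T-ALL spleen, with both counting intervals clear of 1. Among the 9178 genes measured in both pairs, 20.4% had that pattern. The T-ALL comparisons of the 2 organs share no library, but their scaling was set from all libraries together. Sex-linked reads differ between T-ALL and normal in both. The reverse pattern, higher in T-ALL bone marrow and lower in T-ALL spleen, was seen in 3 members, Srsf5, Sf3b1 and Prpf39, and in 22.7% of all genes. Sf3b1 differed least of these, 1.13-fold higher in bone marrow (1.09 to 1.17) and 1.04-fold lower in spleen (1.01 to 1.08), where its log2 fold turned to 0.02 once set against the median of all genes.

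Promoters of members from either side are shown because the members differed in opposite directions. The windows are the 120 bases before the start in RefSeq (GRCm38.p6), where 54 of the 61 genes had an entry. Sf3a2 (chr10:80798615-80798734, plus strand) and Hnrnpab (chr11:51606882-51607001, minus strand) were higher in T-ALL spleen. Srsf5 (chr12:80945379-80945498, plus strand) and Prpf39 (chr12:65036214-65036333, plus strand) were lower there. Capitals mark matches on either strand. In Sf3a2 and Srsf5 they mark CCGGAAG, the core bound by ETS factors, in Hnrnpab the CCAAT box, and in Prpf39 the E-box letters CACGTG. The NRF1 motif and the TATA box (TATAAA) were searched in the same way, and none of the 5 motifs contains another.
Sf3a2: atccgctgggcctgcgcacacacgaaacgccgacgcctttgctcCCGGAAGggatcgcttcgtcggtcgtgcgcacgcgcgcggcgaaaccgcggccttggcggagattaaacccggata
Hnrnpab: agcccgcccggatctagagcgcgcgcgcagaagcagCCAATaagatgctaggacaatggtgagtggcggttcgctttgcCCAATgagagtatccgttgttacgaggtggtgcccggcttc
Srsf5: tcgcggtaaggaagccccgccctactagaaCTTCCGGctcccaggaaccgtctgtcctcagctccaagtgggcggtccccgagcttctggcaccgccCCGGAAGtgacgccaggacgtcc
Prpf39: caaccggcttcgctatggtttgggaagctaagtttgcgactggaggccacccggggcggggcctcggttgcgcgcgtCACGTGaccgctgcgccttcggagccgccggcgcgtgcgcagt

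The ETS letters stand in a gene from each side, at 76 bases before the start in Sf3a2 and at 90 and 23 bases in Srsf5. The windows of Snrpd3, Srsf1 and Sf3b1 held none of the 5 motifs. In the full 300-base entries, which reach 50 bases past the start, 19 of 54 members held CCGGAAG, against 21.9% of 8359 genes at 10 CPM or more and 8.86% of all 32851 entries. CCAAT was in 28 of 54 members, 43.2% of those genes and 37.4% of all entries. CACGTG was in 9 of 54 members, 12.3% and 7.15%. TATAAA was in 6 of 54, 8.31% and 13.6%, and the NRF1 motif in 1 of 54, 2.49% and 0.971%. These matches describe the letters only.

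Summed by family, the shifts ran the same way and differed in size. Summed over its genes, the Snrp family was at 1012 CPM in normal bone marrow, 853 in T-ALL bone marrow, 622 in normal spleen and 1301 in T-ALL spleen. The Srsf family was at 3186, 2719, 2360 and 3365 CPM, the Sf3 family at 2074, 1820, 1598 and 2399 CPM, and the Prpf family at 1770.1, 1581, 1501 and 2112 CPM. Hnrnp genes summed to 9873, 8088, 6310 and 10235 CPM. Every family sum had the same order, from normal spleen through T-ALL bone marrow and normal bone marrow to T-ALL spleen. Gene by gene, the order of normal spleen, then T-ALL bone marrow, then the other libraries was less general. It was seen in 11 of 11 Snrp, 7 of 8 Sf3 and 15 of 18 Hnrnp genes. Of the Srsf genes 6 of 10 had it, and of the Prpf genes 6 of 13, against 19.4% of all genes.

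**Figure D4:**
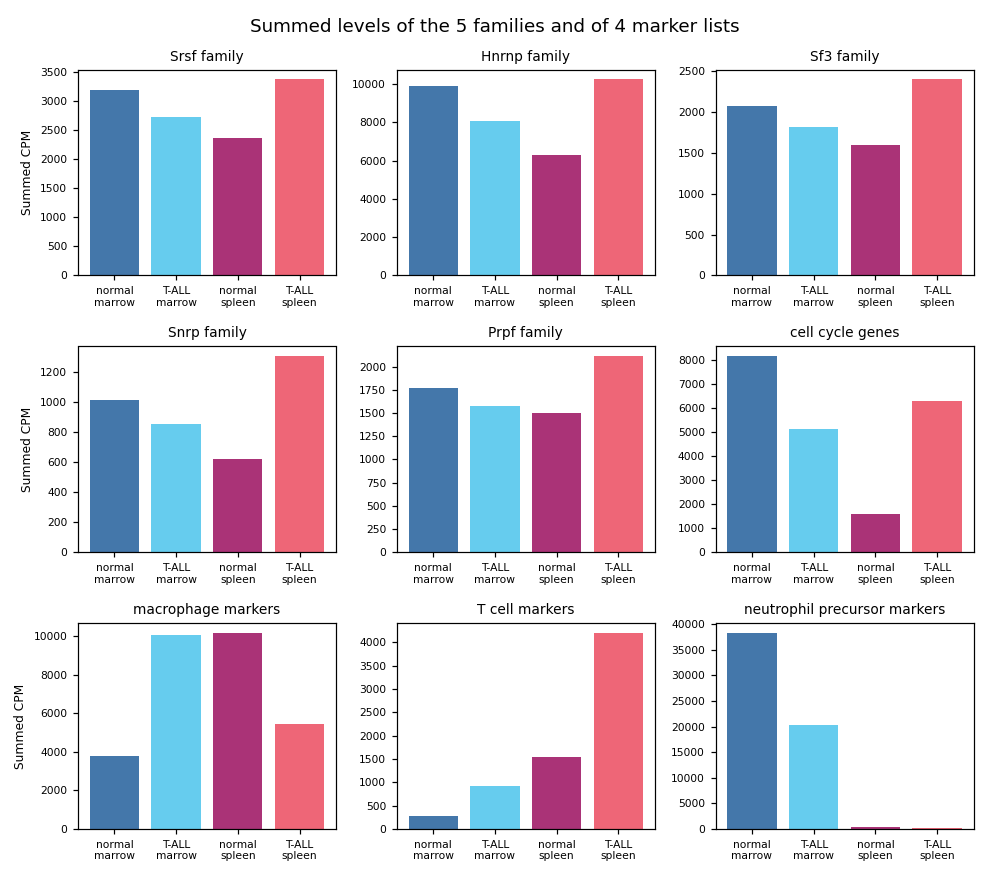
Summed CPM of the 5 families and of 4 marker lists in each library, as bars from 0. The families and the cell cycle genes are lowest in normal spleen and next in T-ALL bone marrow. The macrophage sum is highest in those 2 libraries, but for T-ALL bone marrow this rests on Lyz2.

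Other genes of the pathway differed to varying degrees between the spleens, where 10.3% of all genes were 2-fold higher. Among the LSm proteins, which form the ring of the U6 particle, 4 of 7 were 2-fold higher in T-ALL spleen, with a median log2 fold of 1.15. Lsm7 was at 32.4, 25.8, 17.5 and 46.2 CPM, 2.65-fold higher (2.20 to 3.20). Of 13 genes listed for the assembly and maturation of snRNPs, 4 (Prmt5, Strap, Gemin5 and Smn1) were 2-fold higher, with a median of 0.77. Prmt5, which methylates Sm proteins before assembly, was at 97.8, 76.9, 50.6 and 166 CPM, 3.28-fold higher (2.95 to 3.65). The exon junction complex had 1 of 6 higher, Magoh, with a median of 0.78. The 7 genes with Snrnp symbols, among them Snrnp70 of U1, held 0 past 2-fold and a median of 0.60.

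The other lists had medians below those of the 5 families, and 1 or 2 genes each past 2-fold, beside 10.3% of all genes. Helicases and the GTPase of the spliceosome had 2 of 11 genes 2-fold higher (Ddx39 and Eftud2, median 0.30), and the Prpf19 complex with catalytic factors 1 of 17 (Ppil1, median 0.38). Recognition of the intron's end had 1 of 10 (Phf5a, median 0.28). SR protein kinases and SR-related proteins had 2 of 14 (Rnps1 and Tra2b, median 0.19), and other splicing regulators 1 of 19. The last was Ptbp1, a repressor of exons, at 696, 549, 381 and 916 CPM, 2.41-fold higher (2.31 to 2.50). In these 9 lists 0 genes were 2-fold lower in T-ALL spleen, against 11% of all genes. In bone marrow 0 were 2-fold higher, against 8.01%, or lower, against 1.03%. At 1.5-fold in T-ALL spleen, 3 of 19 other regulators (Rbm5, Ptbp2 and Mbnl1) were lower and 3 higher. Of the 14 SR protein kinases and SR-related proteins, 2 (Clk1 and Clk4) were lower and 4 higher. Of the 13 genes listed for snRNP assembly and maturation, 1 (Snupn) was lower and 8 higher. Of all genes, 23.9% were lower and 20.1% higher at that threshold. Clk1, a kinase that phosphorylates SR proteins, had the order of Srsf5, at 106 CPM in normal bone marrow, 153 in T-ALL bone marrow, 207 in normal spleen and 135 in T-ALL spleen.

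**Figure D5:**
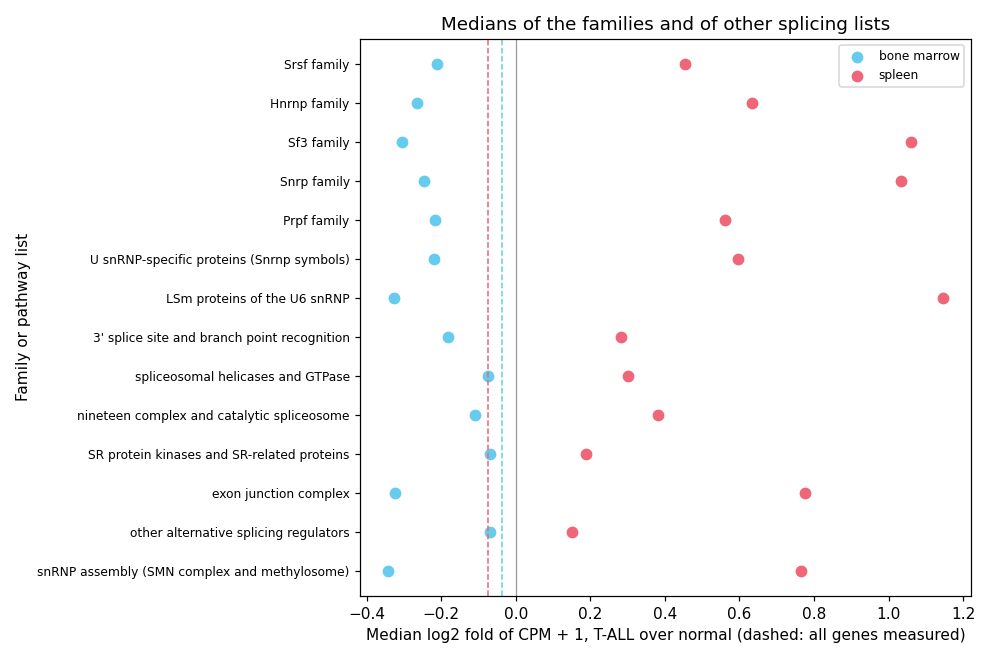
Median log2 fold of CPM + 1 between T-ALL and normal for the 5 families and 9 other lists of splicing genes, in bone marrow and in spleen, with the median of all genes measured as dashed lines. The spleen medians run from 0.15 to 1.15 and the bone marrow medians from -0.34 to -0.07.

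The counts hold uniquely mapped reads alone, which bears on some members. In all, 8 of the 61 had under 60% of their listed length covered in at least 1 library. Hnrnpa1, known for its many processed pseudogenes, had 27.7% to 28.3% covered in each library. Snrpf had 32.2% to 32.8% covered. By RefSeq, 14 members overlap another protein-coding gene, among them Hnrnpab, Hnrnpd, Prpf39, Sf3b3, Snrpf and Srsf2. The strand setting of the counting was not given in the sources used here. Hnrpdl, Hnrpll and 0610009D07Rik, which RefSeq now calls Hnrnpdl, Hnrnpll and Sf3b6, fall outside the symbol pattern. They were 1.34-fold (1.26 to 1.43), 2.41-fold (2.13 to 2.72) and 1.45-fold higher (1.28 to 1.65) in T-ALL spleen.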

How the data were processed

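RNA of sorted macrophages was sequenced in 4 libraries, 1 per group, with groups taken from the sample titles. Per the labels' protocols, libraries were made from total RNA by a standard Illumina method. The deposited counts are whole numbers of uniquely mapped reads per gene, per the file headers, and a gene without a line was set to 0. The deposited RPKM divides those counts by the listed length and the header's total, and the deposited coverage is a percent of that length. The aligner, the build and the counting rule were not given in the sources used here.

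CPM was computed on TMM-scaled totals (edgeR 4.0.16, R 4.3.3; alternative size factors from DESeq2 1.42.0). Folds use Python 3.11.15, numpy 2.4.6, pandas 2.3.3 and scipy 1.17.1, figures matplotlib 3.10.9. Genes measured in a comparison have 10 CPM or more in the higher library, and log2 folds use a pseudocount of 1, which understates low genes. With 1 library per group no model was fitted. Intervals cover counting error only. The size rule was tested on simulated data. Alternatives changed the scaling, pseudocount, minimum level, fold threshold and unit, and left out members with low coverage or overlapping genes. Named are members past the size rule in any comparison, the highest per length and the largest rise and fall of each family, and members under 10 CPM throughout; others were named after their values were seen. The members and lists were chosen with earlier results of these data known. A single member, counted in every total, is not reported here on its own.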

Additional observations from a re-analysis of the deposited data

Results flagged for a closer look

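The T-ALL against normal difference had opposite directions in the 2 organs, lower in bone marrow and higher in spleen, for the median of all members, the median of each family and 15 members past 2-fold in spleen. With 1 library per group the difference between organs was not tested. As spleen minus bone marrow on the log2 scale, the medians differed by 0.998 over all members, 0.663 for Srsf, 0.898 for Hnrnp, 1.37 for Sf3, 1.28 for Snrp and 0.777 for Prpf. Among Sm ring genes the difference was 1.89 for Snrpd1, 1.82 for Snrpd3, 1.74 for Snrpf and 1.48 for Snrpd2, and it was 1.82 for Snrpa1 of U2. For subunits of SF3a it was 1.65 for Sf3a2, 1.37 for Sf3a3 and 1.36 for Sf3a1, and for SF3b 1.64 for Sf3b3 and 1.43 for Sf3b4. The hnRNP genes Hnrnpab, Hnrnpa1 and Hnrnpa3 differed by 1.92, 1.53 and 1.40, Srsf1 by 1.59 and Prpf19 by 1.43.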

How the results depend on the processing

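Scaling, pseudocount, minimum level and unit changed little. Across 12 other settings, the median log2 fold of all members stayed between 0.71 and 0.83 in T-ALL spleen and between -0.27 and -0.21 in T-ALL bone marrow, and no scaling moved the median of all genes by over 0.1. At a 1.5-fold threshold 37 members were higher in T-ALL spleen, 28 lower and 1 higher (Prpf39) in normal spleen than in normal bone marrow, and 13 higher in T-ALL spleen than in T-ALL bone marrow. At 4-fold each of these counts was 0. Without a minimum, or with 1 CPM, 1 member (Srsf12) was higher in normal spleen than in normal bone marrow. A minimum of 50 CPM took the Prpf median in bone marrow to -0.10, with fewer genes tested. Settings added after the data were seen were 3. Without members under 60% coverage the Prpf median in spleen was 0.42, since Prpf19 left. Without members that overlap another gene, 2 were lower in normal spleen than in normal bone marrow, Snrpd1 and Srsf1. Folds set against the median of all genes added Srsf2 and Snrpa to the genes 2-fold higher in T-ALL spleen. Snrpa also passed under total-count and median-of-ratios scaling, and Snrpe was below 2-fold with a pseudocount of 5. Leaving out a library was not possible with 1 per group. No paired analysis was possible because each group has 1 library. Depth limits little here, except for Srsf12, Prpf40b and Hnrnph3.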

Other observations

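Among 5928 other genes at 50 CPM or more in at least 1 library, the 10 whose log2 profile over the 4 libraries lay nearest to the mean profile of the members were Psmb5, Wbp11, L3mbtl2, Acp1, Atp5j2, Eif4g2, Cherp, Xpo1, Cops6 and Anapc4, at root mean square distances of 0.014 to 0.022. Of these, Wbp11 and Cherp encode splicing-related proteins. Wbp11 was at 172 CPM in normal bone marrow, 144 in T-ALL bone marrow, 118 in normal spleen and 188 in T-ALL spleen. The distance rests on 4 libraries.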
